A study of Mus musculus with 18 samples.

Results

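Liver RNA levels of 9 genes of triglyceride assembly were examined in 18 mice, 3 from each of 6 groups. The genes were taken by their symbols (Gpam, Agpat2, Lpin1, Lpin2, Dgat1, Dgat2, Mogat1, Ces1d and Tm6sf2) from a table with 19057 lines of gene symbols, and each was found on a single line. All mice were ICR, 10 weeks old by their labels and male by the methods of the study. Con mice received the regular diet and saline, and HFD mice a high-fat diet and saline. Con-FMT and A10-FMT mice were on the high-fat diet and were gavaged with gut microbiota (FMT, fecal microbiota transplantation) from donors given water or alginate oligosaccharide (AOS) at 10 mg/kg, respectively. The dose in the A10-FMT name is thus that of the donors, and the gut contents of donors were pooled before transfer. By their labels, AOS mice received AOS at 10 mg/kg without the high-fat diet, and HFD+AOS mice received both. How these last 2 groups were dosed is not given in the sources used here. The labels name mice only by group and number, so the p-values measure the spread between these livers.

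The liver builds triglyceride on a glycerol 3-phosphate backbone in the membrane of the endoplasmic reticulum. Acyl chains are added first by a glycerol-3-phosphate acyltransferase (Gpam) and then by a 1-acylglycerol-3-phosphate acyltransferase (Agpat2), the phosphate is removed by a lipin (Lpin1, Lpin2), and a diacylglycerol acyltransferase (Dgat1, Dgat2) adds the last chain. Diacylglycerol can also come from monoacylglycerol through Mogat1, and it is shared with the synthesis of phosphatidylcholine and phosphatidylethanolamine. Stored triglyceride is mobilized by the carboxylesterase Ces1d and loaded onto very-low-density lipoprotein, a step for which Tm6sf2 is needed.

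Levels are RPKM (reads per kilobase of gene, scaled to the reads of the library), which corrects for gene length and library size. It does not correct for the make-up of a library, of which the 10 most abundant genes held 29.8% to 39.0%. Setting library medians equal took the genes called in A10-FMT against HFD from 693 to 1070, with Lpin2 and Dgat2 the members called in both fits. Fold changes are differences of log2(RPKM + 1) with their standard errors (SE), which understates the change of low genes. A gene is said to rise or fall where its p-value in limma, adjusted over the 10507 genes tested, was under 0.05.

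Features of the libraries touch the results below. In the Con group, the third liver lay between the first and second in 98.0% of 148 genes that differ between those 2, with a median distance from their weighted mean of 0.0665 on the log2 scale, and the third AOS liver did so in 96.5% of 142 genes (0.0830). Livers of the other 4 groups gave 58.1% to 76.8% and 0.341 to 0.590. Whether these 2 libraries are independent livers cannot be told. Calls of members that ended without them are given both ways, and the other values below include them unless stated. They also enter the shared estimate of the spread in every comparison of the main fit. Leaving them out took the genes called in A10-FMT against HFD from 693 to 395, though neither group holds these livers. Clock genes split the groups as well. The summed level of 4 clock genes of the Bmal1 phase was 5.04 to 10.57 RPKM in A10-FMT and HFD+AOS livers and 16.81 to 36.41 RPKM in the other 12. Hepatocyte markers were present in every liver, but some of the 7 tested changed. Cyp2e1 rose in A10-FMT against HFD and against Con, and in HFD+AOS against AOS. Apoa1 rose in A10-FMT against Con. In HFD+AOS against HFD, Cyp2e1 and Hnf4a were called, 1 higher and 1 lower. Markers of other cell types moved in some comparisons as well. Of 2 cholangiocyte markers tested, Sox9 alone was called. Against HFD it fell in A10-FMT and in HFD+AOS (-1.03 and -0.87 on the log2 scale, SE 0.15). The median of the 2 markers was -0.42 and -0.41 there, so the other marker was not lower. Against Con, Sox9 fell in A10-FMT (-0.72). The stellate cell markers Col3a1 and Reln (0.62 and 0.76, SE 0.16, 2 of 5 tested) rose in A10-FMT against Con. So did the intestinal marker Fabp2 (0.87, SE 0.17, 1 of 2 tested). The summed level of 5 stellate and fibroblast markers was 95.43 to 102.7 RPKM in A10-FMT and 70.42 to 81.92 RPKM in Con, and the part of these cells in the members' levels was not tested. The summed level of 6 adipocyte markers was 7.76 to 15.63 RPKM, except in the first A10-FMT liver at 58.57 RPKM. Adipoq, Plin1 and Lep were at 0 in all Con, AOS and HFD livers. The second A10-FMT liver also held Adipoq (0.39 RPKM), Plin1 (0.11 RPKM) and Cfd (1.34 RPKM). These were below the first A10-FMT liver (4.42, 0.98 and 22.05 RPKM). Fewer cells of a type and less RNA per cell cannot be told apart in such whole-tissue samples.

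Of the members, 8 were above 1 RPKM in all livers, at very different levels. Ces1d (mean over the 18 livers 248.7 RPKM), Dgat2 (186 RPKM) and Agpat2 (170.1 RPKM) were the most abundant. Gpam followed at 39.3 RPKM, then Tm6sf2 (19.5 RPKM), Lpin2 (18.5 RPKM), Dgat1 (8.96 RPKM) and Lpin1 (8.73 RPKM). Within each pair of isoenzymes the abundances were therefore unequal, with Dgat2 far above Dgat1 and Lpin2 above Lpin1. Mogat1 stayed between 0.00 and 0.47 RPKM and did not enter the test.

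**Figure D1:**
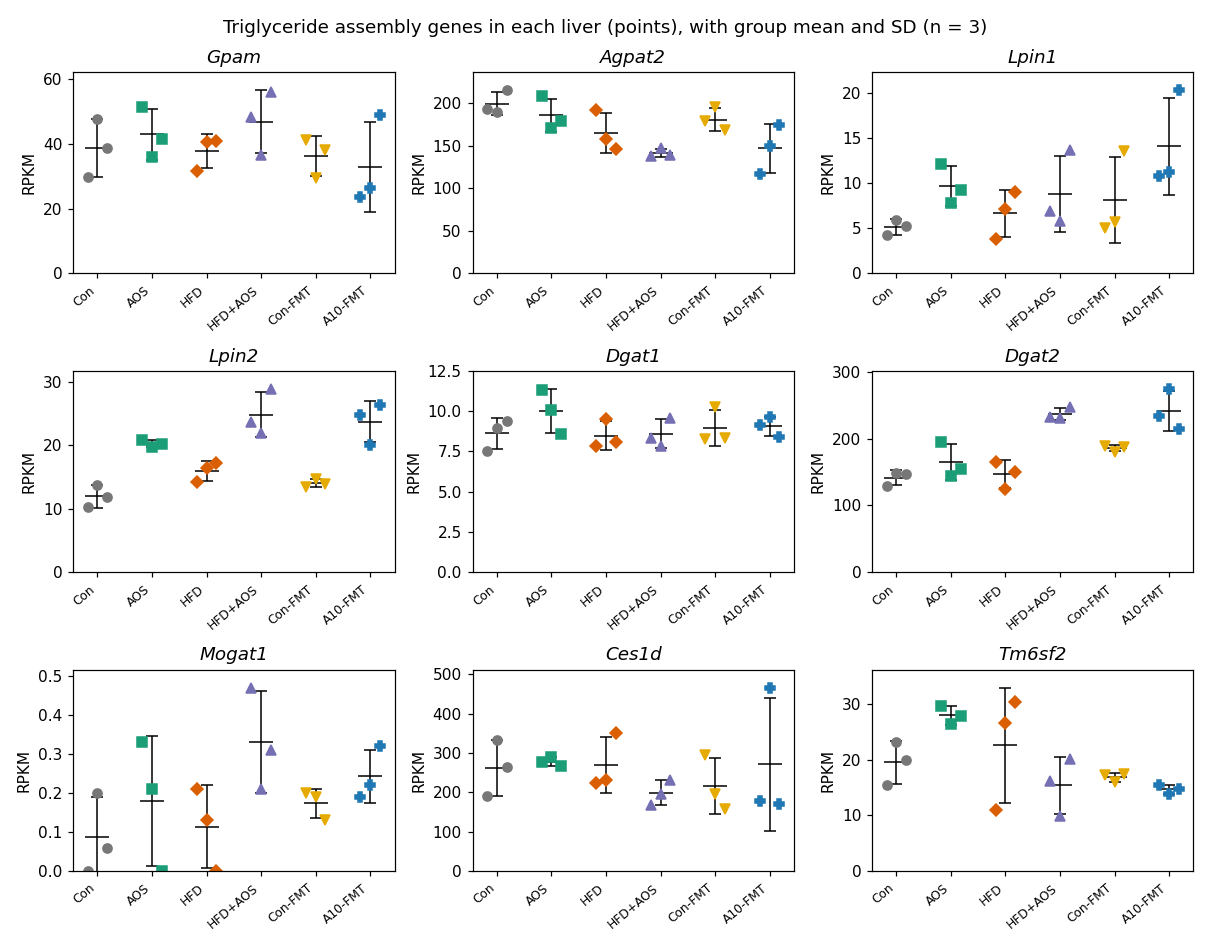
RPKM of the 9 genes in each liver (points, 3 per group, replicates 1 to 3 from left to right), with the group mean (bar) and SD (whiskers), each panel on its own linear axis from 0. Lpin2 was at 19.79 RPKM or more in the AOS, HFD+AOS and A10-FMT livers and at 17.21 RPKM or less in the rest, while Dgat2 was at 215.2 RPKM or more in HFD+AOS and A10-FMT livers alone.

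The differences between groups fell on a few of these steps. Under the high-fat diet alone (HFD vs Con), 0 of the 8 members tested changed in limma, against 0.381% of all genes tested, and 1 was at an unadjusted p under 0.05. Against HFD, A10-FMT livers had 2 members higher (Lpin2 and Dgat2), where 6.60% of all genes changed. Con-FMT against HFD gave 0 of 8 (1 at an unadjusted p under 0.05, background 0.00952%). Between the transplants, A10-FMT against Con-FMT, Lpin2 was the 1 member that rose, against 1.68% of all genes. A10-FMT against Con gave 4 members, Lpin1, Lpin2 and Dgat2 higher and Agpat2 lower, in a comparison where 12.0% of all genes changed.

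AOS without a transplant moved some of the same genes. On the regular diet (AOS vs Con) Lpin2 rose, 1 of 8 members against a background of 0.133%. On the high-fat diet (HFD+AOS vs HFD) Lpin2 and Dgat2 rose, 2 of 8 against 8.75%. The diet in AOS-treated mice (HFD+AOS vs AOS) gave Dgat2 alone, 1 of 8 against 5.44%. Whether AOS acted differently on the 2 diets was tested as an interaction, which was called for 0 of 8 members in limma (2 at an unadjusted p under 0.05), against 0.504% of all genes. Of the 72 combinations of member and comparison, 11 were called and 23 had an unadjusted p under 0.05. The other 49 log2 fold changes lay between -0.54 and 0.51. The comparisons share livers, so their counts are not independent.

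**Figure D2:**
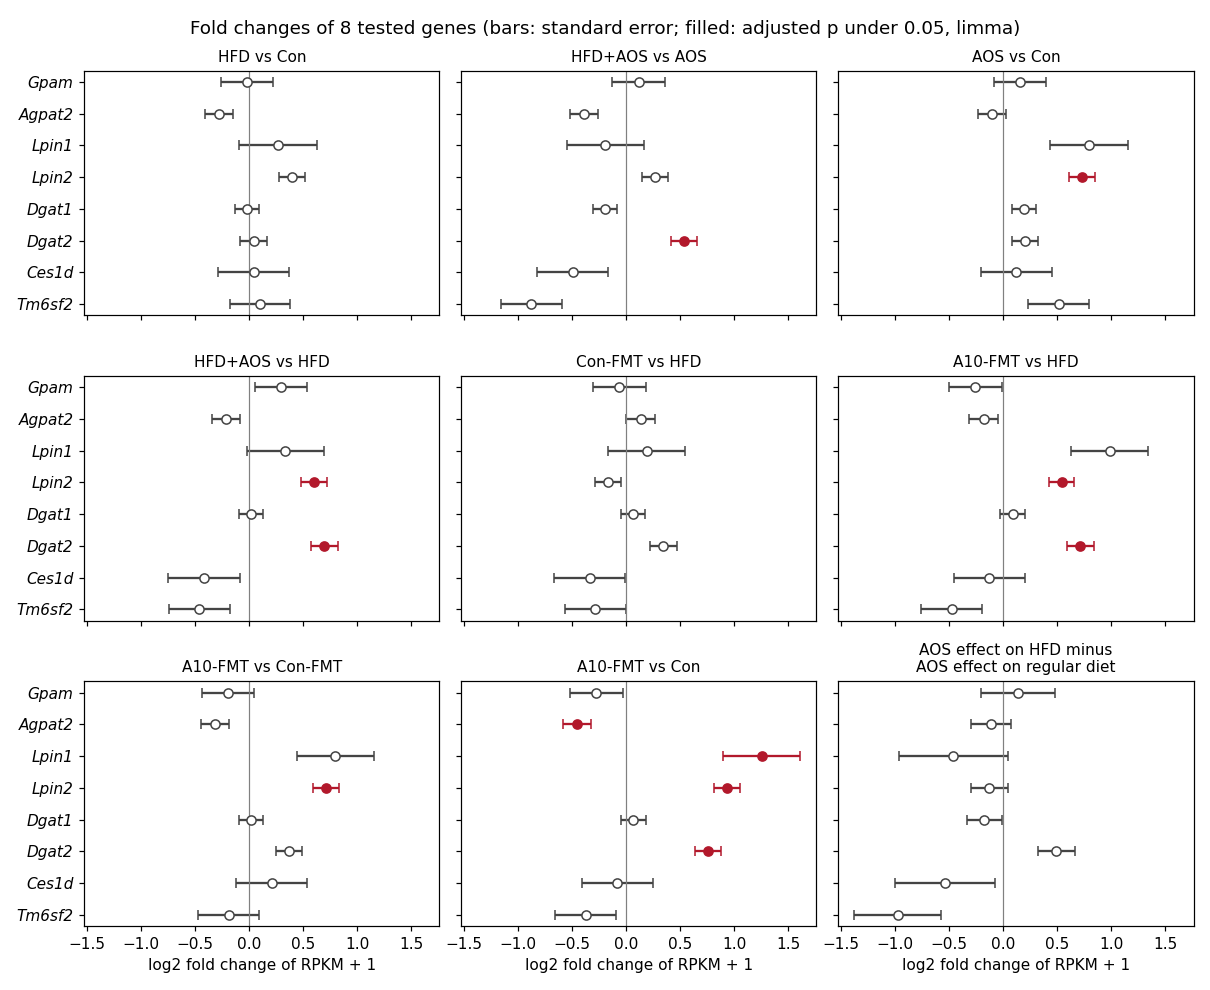
Log2 fold changes (points) with SE (bars) of the 8 members tested, one panel per comparison; filled red points have an adjusted p under 0.05 in limma. Lpin2 is filled in 5 panels, Dgat2 in 4, and Lpin1 and Agpat2 in the panel of A10-FMT vs Con, where Agpat2 is the only one below 0.

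Lpin2, one of the lipins that turn phosphatidate into diacylglycerol, was the member whose level followed the AOS-related groups most closely. It was at 10.23, 13.72 and 11.85 RPKM in Con, at 14.21, 16.47 and 17.21 RPKM in HFD and at 13.42, 14.76 and 13.94 RPKM in Con-FMT. In AOS livers it was at 20.91, 19.79 and 20.27 RPKM, in HFD+AOS at 23.73, 21.96 and 28.91 RPKM, and in A10-FMT at 24.77, 20.11 and 26.38 RPKM. The lowest of the latter 9 livers thus stood above the highest of the former 9. Of all genes tested, 16 (0.152%) separated these livers without overlap, 13 of them upward like Lpin2, including the triglyceride lipase Pnpla2. This grouping was chosen after the values were seen and is given without a test. Within the higher set, AOS overlapped A10-FMT and A10-FMT overlapped HFD+AOS, and within the lower set Con overlapped Con-FMT and Con-FMT overlapped HFD.

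In limma, Lpin2 was 0.73 (SE 0.12) higher on the log2 scale in AOS than in Con, with an adjusted p of 0.0221. It was 0.60 (SE 0.12) higher in HFD+AOS than in HFD (adjusted p 0.00692) and 0.71 (SE 0.12) higher in A10-FMT than in Con-FMT (adjusted p 0.00536). These 3 comparisons have no liver in common, although all use the same estimate of the spread. A10-FMT was also above HFD by 0.54 (SE 0.12, adjusted p 0.0139) and above Con by 0.94 (SE 0.12, adjusted p 0.000168). The high-fat diet alone gave 0.40 (SE 0.12), with no overlap between HFD and Con livers but an adjusted p of 0.142. HFD+AOS and AOS differed by 0.27 (SE 0.12, adjusted p 0.214).

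Leaving out the third Con and AOS livers kept the AOS effect on Lpin2 at 0.73 on the log2 scale, with an unadjusted p of 0.000413 and an adjusted p of 0.460, so that it was no longer called. Over all alternatives to that comparison the adjusted p was 0.00583 to 0.460, and leaving out the first or the third Con liver or any 1 AOS liver ended the call (log2 fold changes 0.63 to 0.75). Without the first A10-FMT liver, the one with the most adipocyte RNA, Lpin2 was 0.51 above HFD. Its adjusted p was 0.0608, in a range of 0.00164 to 0.101 over the alternatives. Against Con-FMT it kept an adjusted p of 0.0314 without that liver, in a range of 0.000666 to 0.10. With only the compared groups in the fit, the calls of A10-FMT against HFD and against Con-FMT were both lost (adjusted p 0.101 and 0.10).

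The clock genes and the fasting genes can be set beside Lpin2. In AOS livers, where Lpin2 was high, the Bmal1-phase clock genes summed to 24.81 to 29.62 RPKM, and 0 of 4 of them changed against Con in limma (0 at an unadjusted p under 0.05). Of 8 clock genes of the opposite phase, Nr1d2 rose there (1.39, SE 0.22, adjusted p 0.0221) and 2 were at an unadjusted p under 0.05. Nr1d1 was at 30.70, 10.03 and 16.86 RPKM in AOS and 1.22, 3.68 and 2.72 RPKM in Con, without overlap (adjusted p 0.105), and the 8 genes summed to 25.99 to 66.24 RPKM in AOS and 11.72 to 26.11 RPKM in Con. The AOS livers thus differed from Con in some clock genes as well, and the part of the clock in Lpin2 was not tested. Of 9 tested genes of the fasting response, Angptl4 rose in AOS against Con (log2 fold change 1.08, SE 0.14, adjusted p 0.0103) and 5 were at an unadjusted p under 0.05, with a median log2 fold change of 0.71 over the 9. The 10 genes of that list found in the table summed to 2268 to 2423 RPKM in AOS and 1337 to 1913 RPKM in Con, without overlap, and Pck1, the gluconeogenic enzyme, was at 539.9 to 553.1 RPKM in AOS and 287.2 to 342.5 RPKM in Con. The calls of Nr1d2 and Angptl4 in AOS against Con did not hold once replicate 3 of both groups was dropped. In that fit 0 of 10482 genes were called between AOS and Con. Dropping only the first Con liver likewise gave 0 of 10494. In HFD+AOS against HFD, Cpt1a rose and G6pc, Igfbp1 and Pdk4 fell. In A10-FMT against Con-FMT, 0 fasting genes rose in limma (4 of 9 were at an unadjusted p under 0.05) and Fgf21 fell, to 1.08, 1.15 and 1.37 RPKM from 5.11, 7.82 and 3.22 RPKM. Igfbp1, a gene held down by insulin, was at 2.86 to 10.16 RPKM in A10-FMT and 6.66 to 10.85 RPKM in HFD+AOS, which overlapped. In AOS, the third group with high Lpin2, Igfbp1 was at 35.23 to 59.56 RPKM. The coactivator Ppargc1a was at 1.19 RPKM or less in all 18 livers. The part of feeding state in the level of Lpin2 was not tested.

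Lpin1, the paralog best known from fat and muscle, was lower and more variable. It was at 4.20, 5.94 and 5.22 RPKM in Con, at 12.13, 7.75 and 9.19 RPKM in AOS and at 3.84, 7.12 and 8.95 RPKM in HFD. The AOS livers all stood above the Con livers, and the HFD livers overlapped both groups. HFD+AOS livers were at 6.87, 5.81 and 13.65 RPKM, Con-FMT at 4.97, 5.68 and 13.56 RPKM and A10-FMT at 10.77, 11.16 and 20.28 RPKM. In 3 of the groups, HFD+AOS, Con-FMT and A10-FMT, the third liver was well above the others.

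Lpin1 rose in A10-FMT against Con by 1.25 (SE 0.36) on the log2 scale, with an adjusted p of 0.0324. The call was lost without the third Con and AOS livers (1.27, adjusted p 0.108), and it was also lost on leaving out the first Con liver, the third Con liver, or the second or the third A10-FMT liver, with adjusted p-values of 0.00924 to 0.116 over the alternatives. Against HFD the difference was 0.99 (adjusted p 0.103), against Con-FMT 0.80 (adjusted p 0.278), and between AOS and Con 0.79 (adjusted p 0.302), each with an SE of 0.36. The summed level of both lipins was 17.1 ± 2.62 RPKM (SD, n = 3) in Con, 22.6 ± 4.14 in HFD and 22.1 ± 4.78 in Con-FMT. It was 30.0 ± 2.79 RPKM in AOS, 33.6 ± 7.85 in HFD+AOS and 37.8 ± 7.95 in A10-FMT. The ratio of Lpin2 to Lpin1 within a liver ran from 1.03 to 3.78 and overlapped between most groups.

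The start regions of both lipin genes are shown because Lpin2 is the member that separated the AOS-related groups and Lpin1 is its isoenzyme at the same step. The windows are the 250 bases before a RefSeq start on GRCm38.p6, written 5′ to 3′ on the strand of the gene. That of Lpin1 is at chr12:16610967-16611216 (minus strand), and that of Lpin2, the first of 3 windows listed for the gene, at chr17:71183282-71183531 (plus strand). Neither overlaps an exon of GENCODE M21, and that of Lpin2 lies inside the annotated span of its gene. Capitals mark matches to an E-box (CACGTG, the same on both strands) or a GC box (GGGCGG, or CCGCCC on the other strand).
Lpin1: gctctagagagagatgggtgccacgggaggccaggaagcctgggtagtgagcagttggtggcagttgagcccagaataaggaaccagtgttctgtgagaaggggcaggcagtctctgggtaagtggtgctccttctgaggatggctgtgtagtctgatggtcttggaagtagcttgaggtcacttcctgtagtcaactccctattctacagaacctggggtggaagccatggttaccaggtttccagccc
Lpin2: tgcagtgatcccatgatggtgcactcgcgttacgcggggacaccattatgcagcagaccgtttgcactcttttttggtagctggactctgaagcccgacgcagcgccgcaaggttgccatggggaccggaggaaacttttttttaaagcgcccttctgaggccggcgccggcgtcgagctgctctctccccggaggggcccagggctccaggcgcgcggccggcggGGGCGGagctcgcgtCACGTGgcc
The Lpin2 window shown held 1 GC box, 24 bases before the start, and 1 E-box, 9 bases before it, while the Lpin1 window held neither. Of the 3 windows listed for Lpin2, 1 held the E-box and 2 the GC box letters, and 1 window was listed for Lpin1. Over 32851 windows of the same length, 6.02% held the E-box letters and 32.7% the GC box letters on either strand. A D-box (TTATGTAA or TTACATAA), held by 0.819% of windows, was in none of the lipin windows. These matches are letters only and say nothing of what binds there.

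Dgat2, which joins the last acyl chain to newly made diacylglycerol, was high in HFD+AOS and A10-FMT livers. It was at 129.70, 148.79 and 147.15 RPKM in Con, at 195.34, 143.43 and 155.28 RPKM in AOS and at 165.43, 124.80 and 150.74 RPKM in HFD. Con-FMT livers were at 189.11, 180.47 and 187.63 RPKM, HFD+AOS livers at 233.08, 230.59 and 248.30 RPKM and A10-FMT livers at 234.42, 274.74 and 215.21 RPKM. Con, HFD and AOS livers overlapped, Con-FMT stood above all Con and HFD livers but overlapped AOS, and the HFD+AOS and A10-FMT livers lay above all 12 others. Without overlap in this grouping, also chosen after the values were seen, were 254 genes (2.42% of those tested), 105 upward and 149 downward.

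Against HFD, Dgat2 rose by 0.71 (SE 0.12) on the log2 scale in A10-FMT (adjusted p 0.00284) and by 0.70 (SE 0.12) in HFD+AOS (adjusted p 0.00331). Against Con it rose by 0.76 (SE 0.12) in A10-FMT (adjusted p 0.00111), and it was 0.54 (SE 0.12) higher in HFD+AOS than in AOS (adjusted p 0.0183). With only the compared groups in the fit, the call of A10-FMT against HFD was lost (adjusted p 0.0669, in a range of 0.00187 to 0.0669 over the alternatives). The call of HFD+AOS against AOS ended without the third Con and AOS livers (0.50, adjusted p 0.119), and without the second or the third AOS liver or the first or the third HFD+AOS liver, in a range of 0.00780 to 0.119. Between the transplants, A10-FMT exceeded Con-FMT by 0.37 (SE 0.12, adjusted p 0.146), and Con-FMT exceeded HFD by 0.34 (SE 0.12, adjusted p 0.637). The effect of AOS was 0.49 (SE 0.17) larger on the high-fat diet than on the regular diet, with an adjusted p of 0.210.

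Dgat1, the second diacylglycerol acyltransferase, was nearly level. It was at 7.52, 8.98 and 9.37 RPKM in Con, at 11.35, 10.08 and 8.61 RPKM in AOS and at 7.84, 9.52 and 8.10 RPKM in HFD. HFD+AOS livers were at 8.36, 7.85 and 9.60 RPKM, Con-FMT at 8.26, 10.24 and 8.34 RPKM and A10-FMT at 9.14, 9.62 and 8.42 RPKM, so all 6 groups overlapped. Its 9 log2 fold changes were between -0.19 and 0.19, with SE 0.11 to 0.16, and had adjusted p-values of 0.354 or more. Within a liver, Dgat2 was 16.5 ± 0.77 times Dgat1 in Con (SD, n = 3), 16.5 ± 2.00 times in AOS, 17.6 ± 4.09 times in HFD and 21.0 ± 2.94 times in Con-FMT. The ratio was 27.7 ± 1.76 in HFD+AOS and 26.6 ± 1.71 in A10-FMT. The lowest HFD+AOS or A10-FMT liver (25.6) was above the highest of the other groups (22.9).

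The groups with high Dgat2 were also those with another state of the clock genes. Arntl, which encodes the clock activator Bmal1, was at 1.18 to 1.32 RPKM in HFD+AOS and 0.69 to 2.41 RPKM in A10-FMT, against 10.11 to 12.90 RPKM in Con, 11.16 to 12.72 in AOS, 12.11 to 14.64 in HFD and 6.94 to 12.97 in Con-FMT. Dbp, a clock output gene of the opposite phase, was at 88.9 to 111.8 RPKM in HFD+AOS and 49.17 to 126.9 RPKM in A10-FMT. It was at 3.24 to 22.57 RPKM in Con-FMT and 0.36 to 3.41 RPKM in AOS. Con and HFD livers were at 0.58 to 0.68 and 0.27 to 0.59 RPKM, below all Con-FMT livers. Nr1d1 and Per2, clock repressors, were at 54.37 to 70.07 and 4.92 to 6.21 RPKM in HFD+AOS, 15.30 to 62.50 and 7.15 to 13.90 RPKM in A10-FMT, and 2.12 to 21.72 and 2.22 to 3.56 RPKM in HFD. These 2 genes did not split the groups as Arntl did. Nr1d1 was at 1.22 to 3.68 RPKM in Con, 10.03 to 30.70 RPKM in AOS and 12.69 to 35.17 RPKM in Con-FMT, the last 2 overlapping A10-FMT, and Per2 was at 1.68 to 6.92 RPKM in Con, overlapping HFD+AOS, at 1.33 to 3.12 RPKM in AOS and at 3.37 to 4.02 RPKM in Con-FMT. In limma, all 4 genes of the Bmal1 phase fell and 7 of 8 of the opposite phase rose in A10-FMT against HFD, and 4 and 6 did in HFD+AOS against HFD. In A10-FMT against Con-FMT, 3 fell and 4 rose, and in HFD vs Con 0 changed in limma (0 and 2 at an unadjusted p under 0.05). Con-FMT against HFD also had 0 called in limma, with 2 of 4 and 6 of 8 at an unadjusted p under 0.05. The 8 genes of the opposite phase summed to 43.16 to 101.6 RPKM in Con-FMT and 17.05 to 41.04 RPKM in HFD, without overlap. The times at which the livers were collected are not given in the sources used here, so clock state and group cannot be told apart for Dgat2.

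**Figure D3:**
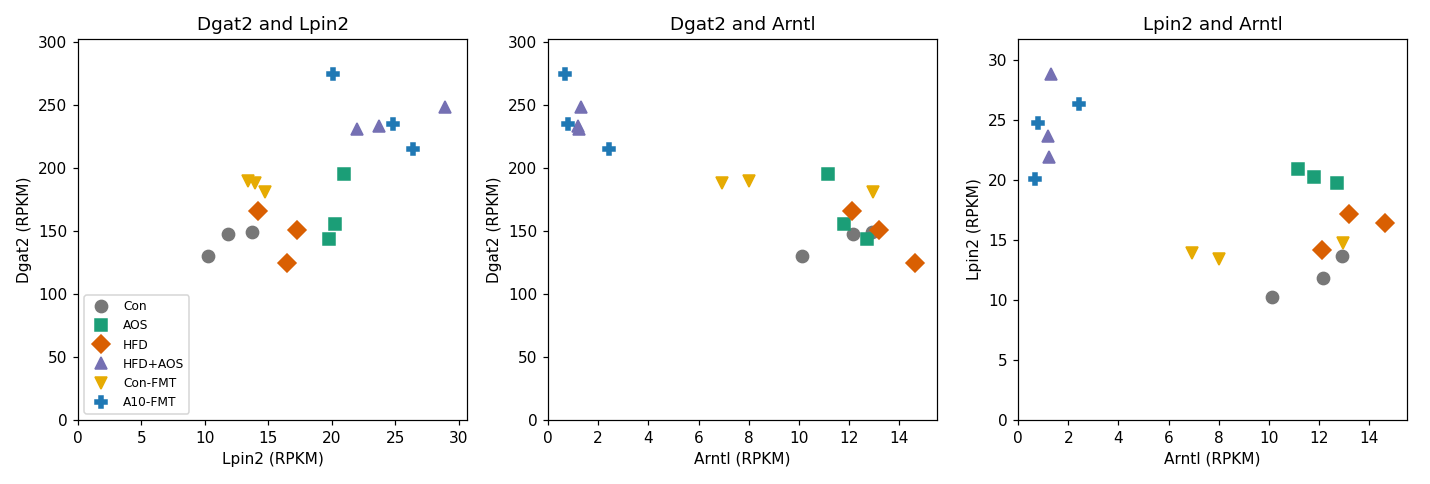
Each point is 1 liver, colored and shaped by group, on linear RPKM axes from 0, with Dgat2 against Lpin2, Dgat2 against Arntl and Lpin2 against Arntl. The 6 HFD+AOS and A10-FMT livers combine Dgat2 of 215.2 RPKM or more with Arntl of 2.41 RPKM or less, whereas the 3 AOS livers have Lpin2 of 19.79 RPKM or more at Arntl of 11.16 RPKM or more.

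Gpam and Agpat2, the members at the start of the pathway, were called in 0 and 1 of 9 comparisons, against 5 for Lpin2 and 4 for Dgat2. Gpat4, another enzyme of the first acylation and not a member, rose in A10-FMT and is given below. Gpam, the mitochondrial enzyme that starts the pathway, was at 29.84, 47.71 and 38.70 RPKM in Con, at 51.58, 36.05 and 41.41 RPKM in AOS and at 31.72, 40.60 and 41.06 RPKM in HFD. HFD+AOS livers were at 48.27, 36.66 and 55.96 RPKM, Con-FMT at 41.12, 29.39 and 38.25 RPKM and A10-FMT at 23.49, 26.44 and 48.97 RPKM. All 6 groups overlapped, and no comparison of Gpam reached an unadjusted p of 0.05 (log2 fold changes -0.28 to 0.29, SE 0.24 to 0.35).

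Agpat2, which makes phosphatidate, was at 193.24, 190.17 and 215.56 RPKM in Con, at 208.16, 170.60 and 179.33 RPKM in AOS and at 191.70, 157.82 and 146.71 RPKM in HFD. It was at 179.34, 195.26 and 168.11 RPKM in Con-FMT, at 137.73, 147.14 and 139.75 RPKM in HFD+AOS and at 116.72, 150.03 and 174.11 RPKM in A10-FMT. All Con livers were above all HFD+AOS and A10-FMT livers, and the lowest value was that of the first A10-FMT liver. In limma Agpat2 fell in A10-FMT against Con, by 0.46 (SE 0.13) on the log2 scale (adjusted p 0.0338). Without the third Con and AOS livers the difference was -0.40 with an adjusted p of 0.162, and without the first A10-FMT liver it was -0.30 with an adjusted p of 0.160; the alternatives ranged from 0.00859 to 0.162, and the call also ended without the first or the third Con liver or the second A10-FMT liver. Differences of -0.31 from Con-FMT (adjusted p 0.246) and -0.39 between HFD+AOS and AOS (adjusted p 0.101) did not pass. Exons of Agpat2 overlap those of Egfl7 on the opposite strand, and whether counting used strand is not given in the sources used here.

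Of the genes that act beside or after the main route, Mogat1, the monoacylglycerol acyltransferase, was almost silent. It was at 0.00, 0.20 and 0.06 RPKM in Con, at 0.33, 0.21 and 0.00 RPKM in AOS and at 0.21, 0.13 and 0.00 RPKM in HFD. HFD+AOS livers were at 0.47, 0.21 and 0.31 RPKM, Con-FMT at 0.20, 0.19 and 0.13 RPKM and A10-FMT at 0.19, 0.22 and 0.32 RPKM. It was listed above 0 in 15 of 18 livers, as was its paralog Mogat2 (up to 0.15 RPKM), and its exons overlap BC035947 on the opposite strand. At such levels, with read numbers unknown, differences between groups were not assessed.

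Ces1d, also known as triglyceride hydrolase, was abundant and variable within groups. It was at 189.34, 333.02 and 263.21 RPKM in Con, at 276.45, 289.49 and 266.43 RPKM in AOS and at 223.29, 232.20 and 350.72 RPKM in HFD. It was at 168.51, 195.35 and 231.47 RPKM in HFD+AOS, at 294.40, 195.83 and 156.18 RPKM in Con-FMT and at 176.64, 465.25 and 169.71 RPKM in A10-FMT. The AOS livers were all above the HFD+AOS livers, and the second A10-FMT liver had the highest value of all 18. No comparison reached an unadjusted p of 0.05 (log2 fold changes -0.54 to 0.21, SE 0.33 to 0.46). Group means accounted for 18.8% of its variance, against a median of 46.0% over all genes tested. Ces1d is 1 of a cluster of similar carboxylesterase genes, and the mapping reported all hits of a read, so its level may include reads of its paralogs.

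Tm6sf2, a membrane protein of the endoplasmic reticulum needed to lipidate lipoproteins, was at 15.50, 23.22 and 19.92 RPKM in Con, at 29.77, 26.45 and 27.84 RPKM in AOS and at 10.90, 26.63 and 30.38 RPKM in HFD. It was at 16.14, 9.90 and 20.13 RPKM in HFD+AOS, at 17.22, 15.96 and 17.39 RPKM in Con-FMT and at 15.42, 13.93 and 14.68 RPKM in A10-FMT. AOS livers were thus above all Con livers and above all HFD+AOS livers, while the first HFD liver was far below the other two. The difference between HFD+AOS and AOS was -0.88 (SE 0.28) on the log2 scale, with an adjusted p of 0.0827. The AOS effect on the high-fat diet was 0.98 below that on the regular diet (value -0.98, SE 0.40, adjusted p 0.276). Without the first HFD liver this difference was -1.41 with an adjusted p of 0.0183, in a range of 0.0183 to 0.564 over the alternatives. Tm6sf2 was -0.47 from HFD in A10-FMT (SE 0.28, adjusted p 0.315) and -0.46 in HFD+AOS (SE 0.28, adjusted p 0.317). Without that same HFD liver these became -0.91 (adjusted p 0.0150) and -0.90 (adjusted p 0.0145) and were called, in ranges of 0.0150 to 0.740 and 0.0145 to 0.758 over the alternatives.

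Group membership thus accounted for very different shares of the variance of log2 values, at 89.8% for Lpin2, 85.4% for Dgat2, 63.6% for Agpat2, 48.9% for Lpin1, 48.2% for Tm6sf2, 29.0% for Gpam and 27.0% for Dgat1. The SD within groups was 0.152 on the log2 scale for Lpin2, 0.155 for Dgat2 and 0.144 for Dgat1, near the median of all genes (0.133). It was 0.335 for Gpam, 0.389 for Tm6sf2, 0.454 for Ces1d and 0.498 for Lpin1, which limits what 3 livers a group can show for these genes. Across the 28 pairs of the 8 members, Pearson correlations of log2 values over the 18 livers ran from -0.65 to 0.69 and, after removal of group means, from -0.45 to 0.71. They are descriptions over livers that share groups.

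The genes whose levels over the 18 livers were most like those of a member were listed for the 4 members that changed. For Dgat2 these were Tef (Pearson r 0.96), Hlf (0.96) and Tmem220 (0.94), and after removal of group means r was 0.76, 0.72 and 0.89. Tef and Hlf encode transcription factors of the same family as Dbp, and Tef, like Dbp, is driven by the clock. For Lpin2 they were Slc35d2 (0.89), Bach1 (0.89) and Foxo3 (0.88), falling to 0.30, 0.50 and 0.53 after removal of group means, so their likeness lay mostly in the group levels. For Lpin1 they were Cebpb (0.83), Cyth1 (0.82) and Gm46008 (0.82), and for Agpat2 they were Srms (0.91), Mrap (0.89) and Dpy19l1 (0.89). These genes were chosen for their r among 10507, so the values carry no test.

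Of other genes of glycerolipid metabolism, 67 were found in the table and 59 were tested. In A10-FMT against HFD, 4 rose and 4 fell in limma. Those with the smallest p were Chka, the choline kinase that starts phosphatidylcholine synthesis (log2 fold change -2.10, SE 0.14, adjusted p 4.68e-07), Selenoi, an ethanolamine phosphotransferase that uses diacylglycerol (-0.75, SE 0.13, adjusted p 0.00339), and Gpat4, a microsomal enzyme of the first acylation (0.33, SE 0.07, adjusted p 0.00972). The median log2 fold change was -0.01 for these 59 genes, -0.02 for the 8 members and -0.03 for all genes. In A10-FMT against Con-FMT, Chka (-1.64, SE 0.14) and Selenoi (-0.60, SE 0.13) fell and Gpat4 (0.30, SE 0.07) rose, and none of the others passed (16 of 59 were at an unadjusted p under 0.05). Chka was at 9.30, 7.91 and 11.65 RPKM in A10-FMT livers, 8.91, 7.73 and 8.67 RPKM in HFD+AOS livers and 27.55 RPKM or more in all others.

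The same branch genes moved in the AOS comparisons on the high-fat diet. In HFD+AOS against HFD, 5 rose and 4 fell. Chka was at -2.25 (SE 0.14) and Selenoi at -0.65 (SE 0.13) on the log2 scale, and Ppara, the receptor that governs fatty acid oxidation, at 0.87 (SE 0.14). In HFD+AOS against AOS, 3 rose and 4 fell, again led by Chka (-2.17, SE 0.14), Ppara (0.75, SE 0.14) and Selenoi (-0.62, SE 0.13). A10-FMT against Con had 9 higher and 5 lower, with Chka at -2.24 (SE 0.14), Ppara at 0.94 (SE 0.14) and Selenoi at -0.71 (SE 0.13). In limma 0 changed in HFD vs Con (11 at an unadjusted p under 0.05), Con-FMT vs HFD (4) and AOS vs Con (14). The smallest p in these were those of Mia2, a protein of lipoprotein export (0.59, adjusted p 0.0733), Chka (-0.45, adjusted p 0.578) and Cept1, a diacylglycerol choline and ethanolamine phosphotransferase (0.36, adjusted p 0.144). All livers with low Chka were also those with low Arntl, and the part of the clock in this difference was not tested.

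**Figure D4:**
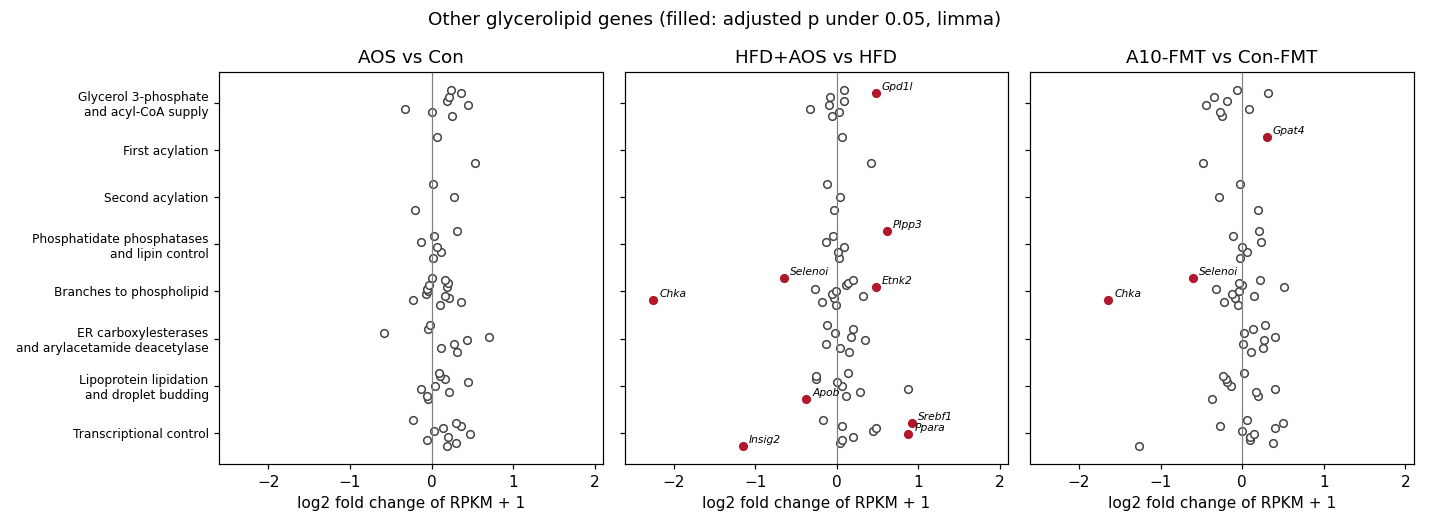
Log2 fold changes of the 59 other glycerolipid genes tested, by role, in 3 comparisons that share no livers; filled red points have an adjusted p under 0.05 in limma. No point is filled in AOS vs Con, 9 are in HFD+AOS vs HFD and 3 in A10-FMT vs Con-FMT, and Chka and Selenoi lie below 0 in both of the latter.

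By role, the calls were spread as follows, with no test between roles. Of 8 genes that supply glycerol 3-phosphate and acyl-CoA, Gpd1l rose in HFD+AOS against HFD and 0 changed in A10-FMT against HFD (2 at an unadjusted p under 0.05 in limma). Of 6 other phosphatases and lipin regulators, Plpp3 rose by 0.61 (SE 0.14) in HFD+AOS against HFD, and 0 changed in A10-FMT against HFD (1 at an unadjusted p under 0.05). Of 9 genes of lipoprotein lipidation and droplet budding, Apob, the protein of the lipoprotein particle, fell in A10-FMT (-0.40, SE 0.09) and in HFD+AOS (-0.37, SE 0.09) against HFD. In A10-FMT against Con, where 12.0% of all genes changed, Gpd1l, Gpat4, Plpp3, Ces3a and Mia2 rose and Acsl4 fell, 6 genes outside the phospholipid branches and the regulators. Of 10 regulators, Srebf1, the activator of lipid synthesis genes, and Ppara rose and Insig2, which retains SREBP proteins, fell in both. Srebf1 was at 77.69 to 90.39 RPKM in A10-FMT, 79.61 to 87.26 RPKM in HFD+AOS and 42.60 to 44.35 RPKM in HFD, while Mlxipl, the carbohydrate-responsive activator, was at 92.22 to 134.2 RPKM in A10-FMT, 81.43 to 107.6 RPKM in HFD+AOS and 83.01 to 98.37 RPKM in HFD. Pparg was at 1.38 to 4.79 RPKM over all livers.

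The members lie on 8 chromosomes of GRCm38 (GENCODE M21). Gpam is at chr19:55067268-55127238, Agpat2 at chr2:26593057-26604417, Lpin1 at chr12:16535669-16610966, Dgat1 at chr15:76502015-76511953, Dgat2 at chr7:99153658-99182719 and Ces1d at chr8:93166068-93197838, all on the minus strand. Lpin2 at chr17:71182560-71249817, Mogat1 at chr1:78510991-78538173 and Tm6sf2 at chr8:70072924-70080066 are on the plus strand. All are protein-coding, and Ces1d and Tm6sf2 share a chromosome at a distance, so the genes that rose are not neighbours.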

How the data were processed

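Liver RNA of 18 mice was sequenced on an Illumina HiSeq instrument. The authors mapped reads to reference genes with SOAPaligner (v 2.20, all hits of a read reported) and deposited RPKM values with 2 decimals; the submitters' processing notes also name Bowtie 0.12.2 and mm10, without a role. The header does not name the unit, which comes from the study's methods. Read numbers were not beside the values, so the depth of a library is unknown and the precision of a low value cannot be given. Summed RPKM was 692303 to 806937 per library. The study's own test, DEGseq, needs read counts and was not run.

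Groups came from the sample labels. The low-value filter required 1 RPKM or more in 3 or more of the 18 livers, which 10507 of 17109 genes with any signal and 8 of the 9 members passed. Values were log2(RPKM + 1), a pseudocount of 1, without further scaling. A mean per group was fitted over all 18 livers with limma 3.58.1 in R 4.3.3 (eBayes with trend, two-sided), and the Benjamini-Hochberg adjustment ran over all genes of each of 9 comparisons. The procedure was tested on simulated data. Tables and figures used Python 3.11.15 (pandas 2.3.3, matplotlib 3.10.9).

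Every member is given in every liver, with a fold change, SE and adjusted p where the unadjusted p was under 0.05. Of the other pathway genes, up to 3 with the smallest p among those called are named per comparison (or the 1 with the smallest p), beside those of the clock, fasting and regulator lists. Gpd1l, Plpp3, Apob, Insig2, Acsl4, Ces3a, Angptl4, Cpt1a, G6pc, Pdk4, Nr1d2, Sox9, Col3a1, Reln, Fabp2, Cyp2e1, Apoa1 and Hnf4a were named after their values were seen. For each member called, the 3 genes with the highest r are named. The members and lists were chosen with earlier results of these data known. Replicate numbers did not pair the livers: 45 correlations of same-numbered livers between groups, after removal of group means, were -0.18 to 0.23, and in 0 of 15 pairs of groups were all above 0.1. Alternatives were a pseudocount of 0.1, no low-value filter, equal library medians, a replicate block, no variance trend, only the compared groups in the fit, the study's cut-offs (FDR 0.001 and an absolute log2 ratio of 1), and leaving out each liver or the third Con and AOS livers together. Promoter windows from RefSeq were listed for 5 of the 9 members.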

Additional observations from a re-analysis of the deposited data

Results flagged for a closer look

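The 8 members and 59 other glycerolipid genes tested were searched for AOS effects that differed between the diets. Chka alone was called for the difference in limma. Of all 10507 genes, 53 (0.504%) were called, with 3 of 4 Bmal1-phase and 4 of 8 opposite-phase clock genes among them. Tm6sf2 and Ces1d were flagged only because their effects went opposite ways, a rule applied to members alone. For Chka, the effect of AOS was -0.23 on the log2 scale on the regular diet and -2.25 on the high-fat diet, a difference of -2.03 (SE 0.20, adjusted p 0.000109 in limma); the clock genes of the same livers moved with it, and their part was not tested. For Tm6sf2, the effects were 0.51 and -0.46, a difference of -0.98 (SE 0.40, unadjusted p 0.0264, adjusted p 0.276 in limma), which did not pass the adjustment. For Ces1d, the effects were 0.12 and -0.42, a difference of -0.54 (SE 0.46, adjusted p 0.606 in limma), which is within the spread between livers.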

How the results depend on the processing

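Of 132 recomputed counts of members called, 105 stayed within 1.5 times the main count, but many of these were counts of 0 that stayed at 0. HFD vs Con and Con-FMT vs HFD stayed at 0 under all 14 alternatives each, and the difference between the AOS effects in 19 of 20. The count moved in 7 of 14 alternatives for AOS vs Con and for HFD+AOS vs AOS, and in 6 of 14 for A10-FMT vs Con. It moved in 3 of 14 for A10-FMT vs HFD, 2 of 14 for A10-FMT vs Con-FMT and 1 of 14 for HFD+AOS vs HFD. With the study's cut-offs (FDR 0.001 and a log2 ratio of 1 in size) every count became 0, in A10-FMT vs HFD, A10-FMT vs Con-FMT, A10-FMT vs Con, AOS vs Con, HFD+AOS vs HFD and HFD+AOS vs AOS. The study used these cut-offs with DEGseq, and here they were applied to limma. Of all 10507 genes they left 39, 10, 62, 0, 35 and 26 called in these comparisons, in the same order. With only the compared groups in the fit, which leaves fewer livers, the count was 0 in A10-FMT vs HFD and A10-FMT vs Con-FMT and 3 in HFD+AOS vs AOS (Dgat2 higher, Agpat2 and Ces1d lower). Without the third Con and AOS livers it was 2 in A10-FMT vs Con, 0 in AOS vs Con and 0 in HFD+AOS vs AOS. Without a low-value filter it was 2 in A10-FMT vs Con, where more genes were tested. Leaving out 1 liver at a time gave 1 to 3 members in A10-FMT vs HFD (1 without the first A10-FMT liver), 1 to 1 in A10-FMT vs Con-FMT, 2 to 4 in A10-FMT vs Con, 0 to 1 in AOS vs Con, 2 to 3 in HFD+AOS vs HFD (3 here and in A10-FMT vs HFD without the first HFD liver, with Tm6sf2 lower), 0 to 1 in HFD+AOS vs AOS and 0 to 1 for the difference between the AOS effects (1, Tm6sf2, without the first HFD liver). The replicate block gave 3 members in A10-FMT vs HFD, where Lpin1 was called (adjusted p 0.0433), and 3 in A10-FMT vs Con, where Agpat2 was not; it changed no other call of a member. Over 334 recomputed fold changes of the 23 pairs at an unadjusted p under 0.05, 0 changed direction. Only the 11 pairs called in the main fit could lose the call. Each of these was recomputed 14 times, and 40 of their recomputations lost it. Among the pairs not called in the main fit, 3 recomputations gained the call. The replicate block, no variance trend, only the compared groups and the study's cut-offs leave a fold change as it was. The other alternatives reuse most or all of the livers, for pairs chosen on their p, so direction was not put to a test. Other pathway genes called were 8 in A10-FMT vs HFD (1 to 16 over the alternatives), 3 in A10-FMT vs Con-FMT (1 to 9), 14 in A10-FMT vs Con (1 to 17), 9 in HFD+AOS vs HFD (1 to 10), 7 in HFD+AOS vs AOS (1 to 10), 1 for the difference between the AOS effects (1 to 3), 0 in HFD vs Con (0 to 2) and 0 in AOS vs Con (0 to 1). The causes of these shifts were not tested. With unknown depth, no difference can be read from Mogat1.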
